A study of Mus musculus with 6 samples.

Results

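Potassium channel genes were examined in mouse olfactory sensory neurons (OSNs) and in the populations they were set against. The genes were all those whose single platform symbol starts with Kcn, which takes in pore-forming and accessory subunits. Antisense and opposite-strand transcripts were left out. They numbered 81 genes on 159 probe sets, out of 18193 genes and 45137 probe sets on a pair of Affymetrix arrays, with 90 of the probe sets on chip A and 69 on chip B. The rule used names and no measured value.

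Each of 3 populations from OMP-GFP mice was hybridised to 1 array per chip. In these mice GFP stands in for the coding region of Omp, the olfactory marker protein gene of mature olfactory and vomeronasal neurons, and all 3 populations carried that allele. The sorted OSNs were GFP-positive cells taken by flow cytometry, about 500000 cells. The residual epithelium was the olfactory epithelium without those cells, about 2500000 cells. The brain was brain tissue without the olfactory bulbs. The strain, age and sex of the mice, whether the allele was on 1 or both chromosomes, and how many animals were pooled are not stated in the sources at hand.

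Potassium channels let potassium leave or enter a cell along its gradient and so set the resting voltage, the end of each action potential and the pattern of firing. Voltage-gated pores are built from subunits such as those of the Kcna, Kcnc, Kcnd, Kcnh and Kcnq families, and Kcnf, Kcng, Kcns and Kcnv subunits form no channel alone but change the channels they join. Kcnab, Kcne and Kcnip proteins are accessory subunits. Kcnma and Kcnn channels open with calcium and Kcnt channels with sodium, Kcnj channels pass current more easily inward, and Kcnk channels carry a steady leak. An OSN answers odorants with a cation and chloride current in its cilia, and potassium channels in its cell body and axon repolarise it.

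The deposited values were probe set signals on a linear scale, each array scaled to a common mean. Signals under the lower quartile of a chip (the floor, 70.3 for A and 79.7 for B) were raised to it before log2 ratios were taken within the chip. A gene entered a comparison if the larger of the pair of signals was no lower than the median of its chip (222 for A, 243.7 for B); it is then called counted. It was represented by the probe set whose mean log2 signal ranked highest within its chip. A fold whose lower signal lay under the floor is given as at least that fold. No test was possible with a single array for each population and chip, and no p-value is given. As a yardstick, 100 probe sets present on both chips differed in their log2 ratio of OSNs over residual epithelium with an SD of 0.25, over brain with 0.29, and for residual epithelium over brain with 0.34, and none of these stands for the spread between animals. Their mean ratio on chip A minus that on chip B was 0.23, -0.19 and -0.42 in the same order. A bulk signal cannot tell fewer cells of a type from less RNA per cell. Signals of different probe sets are not compared with each other, because each binds with its own strength.

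Mature OSN and brain markers went with the labels, while 3 of 4 sustentacular (supporting cell) markers were within 2-fold between the epithelial samples. Of 6 mature OSN markers, all had OSN signals at least 4-fold above residual epithelium and above brain, with summed signals of 164664, 4385 and 3837 in that order, and Cnga2 and Cnga4 were below the floor in brain. At the brighter of its 2 probe sets Omp had 11057 in OSNs, against 249 in residual epithelium and 201 in brain, and the other was under the floor in all 3 populations. Actb had 12555, 14779 and 16436 at the brighter of its probe sets. The other Actb probe set had 1305 in OSNs, against 654 in residual epithelium and 899 in brain, 1.99-fold above residual epithelium in OSNs. All 5 measured brain neuron markers and all 6 measured brain glia markers were at least 4-fold below brain in OSNs. Gad1 and Mog were below the floor in OSNs and in residual epithelium. Of the sustentacular markers, Cyp2g1 had 3822 in OSNs, against 2657 in residual epithelium and 103 in brain, and Cyp1a2 had 424 in OSNs, against 335 in residual epithelium and 16.4 in brain. Both were thus no lower in the sorted OSNs than in residual epithelium, and the part of supporting cells in the channel values was not tested.

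Of the 81 genes, 58 were counted in at least 1 comparison and 23 in none. Signals reached the chip median for 32 genes in OSNs, for 30 in residual epithelium and for 50 in brain, or 39.5%, 37% and 61.7%, against 57.6%, 62.6% and 61.6% of all genes on the arrays. Kcn genes thus reached the median less often than genes at large in both epithelial samples and as often in brain. The 23 genes counted nowhere included the voltage-gated Kcna3, Kcna4, Kcna7, Kcnh5 and Kcns1, and the accessory Kcne1, Kcne1l, Kcne2, Kcne3, Kcne4 and Kcnmb1. Kcnn3 and Kcnu1, also counted nowhere, were grouped by symbol with the calcium- or sodium-activated pores. The rest were the inward rectifiers Kcnj1, Kcnj2, Kcnj8, Kcnj12 and Kcnj14, and the tandem-pore Kcnk3, Kcnk5, Kcnk7, Kcnk13 and Kcnk15. In 8 of the 23 (Kcne1l, Kcne3, Kcnh5, Kcnj1, Kcnj2, Kcnj14, Kcnn3 and Kcns1) the signal lay under the floor on every array.

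Setting OSNs against residual epithelium compares channel genes of the sorted sample with those of the remaining epithelium. Both are mixed samples by their markers, so a ratio does not place a gene in a cell type. Of 39 counted Kcn genes, 17 had OSN signals at least 2-fold higher (43.6%), against 12.8% of all counted genes, and 10 were at least 2-fold lower (25.6%), against 18.7%. The median log2 ratio was 0.70, and it was -0.05 over all counted genes. For 16 of the 39 the filter was met by 1 of the arrays alone, and the side of such a ratio follows from the filter. Among the 23 Kcn genes with both signals at the chip median or above, 8 were higher and 4 were lower, against 11.6% and 9.97% of all such genes. By probe set, 20 of 26 counted on chip A were higher and 3 were lower, against 12.5% and 18.8% of the chip's probe sets. On chip B, 12 of 39 were higher and 10 were lower, against 13% and 16.5%. Of these probe sets, 18 of the 26 on chip A and 16 of the 39 on chip B met the filter through 1 array alone.

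Against brain, which holds other neurons and glia, more Kcn genes were lower than higher in OSNs. Of 56 counted Kcn genes, 9 had OSN signals at least 2-fold higher (16.1%), against 18.5% of all counted genes, and 30 were lower (53.6%), against 21.1%. The median log2 ratio was -1.49, and 0.05 over all counted genes. For 30 of the 56 the filter was met by 1 of the arrays alone, which fixed the side of the ratio. The same held for 3076 of the 12380 genes counted at large. Of the 26 Kcn genes with both signals at the chip median or above, 3 were higher and 8 were lower, against 16.4% and 11.9% of such genes. Their median log2 ratio was -0.25, and 0.13 over all such genes. By probe set, 10 of 45 on chip A were higher and 24 were lower, against 16.1% and 22%, and 6 of 55 on chip B were higher and 32 lower, against 17.6% and 21.7%. Of these, 30 of the 45 and 28 of the 55 met the filter through 1 array alone. After scaling on the 100 shared probe sets, 8 Kcn genes were higher and 31 lower, while the shares of all genes became 14% and 25.7%.

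**Figure D1:**
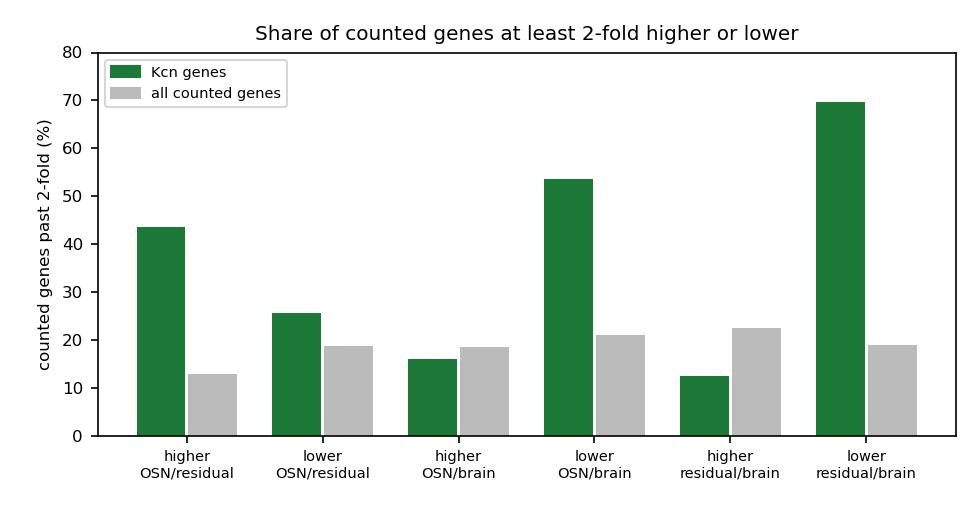
Share of counted genes, in percent, that were at least 2-fold higher or lower in each comparison, for Kcn genes (green) and for all counted genes (grey), 1 array per population and chip. The green bars stand above the grey ones for genes higher (43.6% and 12.8%) and lower (25.6% and 18.7%) in OSNs against residual epithelium, for genes lower in OSNs against brain (53.6% and 21.1%) and for genes lower in residual epithelium against brain (69.6% and 18.9%). In these 3 comparisons, in that order, 16 of 39, 30 of 56 and 32 of 56 Kcn genes met the filter through 1 array alone, which fixed their side.

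Across both comparisons, 7 Kcn genes had OSN signals at least 2-fold above both residual epithelium and brain. They were Kcna5, Kcnc4, Kcnk10, Kcnmb2, Kcnn1, Kcnq1 and Kcns3, out of 37 counted in both (18.9%, against 7.69% of all genes). Among the 19 Kcn genes whose signals reached the chip median in all 3 populations, a restriction chosen after seeing the data, 2 had this profile, Kcnk10 and Kcns3 (10.5%, against 5.79% of all such genes). The sequences just before and after the start sites of 3 of them, and of Kcna6, a neighbour of Kcna5 on the chromosome, are printed because OSN signals set these genes apart from residual epithelium; they were picked after the values were seen. They run 5′ to 3′ from 250 bases before to 50 bases after the start, from RefSeq on GRCm38.p6, and capitals mark 3 short motifs searched on both strands.
Kcnc4, chr3:107458849-107459148, minus strand: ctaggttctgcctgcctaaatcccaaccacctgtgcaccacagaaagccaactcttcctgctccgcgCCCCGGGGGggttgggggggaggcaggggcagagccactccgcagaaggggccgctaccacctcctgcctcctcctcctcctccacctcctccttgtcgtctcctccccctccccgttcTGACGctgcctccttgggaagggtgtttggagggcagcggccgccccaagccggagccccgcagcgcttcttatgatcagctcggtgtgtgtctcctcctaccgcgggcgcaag
Kcns3, chr12:11150793-11151092, minus strand: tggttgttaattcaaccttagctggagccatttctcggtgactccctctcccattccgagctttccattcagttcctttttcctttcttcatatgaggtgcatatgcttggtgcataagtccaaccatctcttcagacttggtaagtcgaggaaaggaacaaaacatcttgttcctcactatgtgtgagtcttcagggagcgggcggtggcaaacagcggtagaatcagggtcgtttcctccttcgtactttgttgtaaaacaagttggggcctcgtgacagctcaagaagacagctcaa
Kcna5, chr6:126535506-126535805, minus strand: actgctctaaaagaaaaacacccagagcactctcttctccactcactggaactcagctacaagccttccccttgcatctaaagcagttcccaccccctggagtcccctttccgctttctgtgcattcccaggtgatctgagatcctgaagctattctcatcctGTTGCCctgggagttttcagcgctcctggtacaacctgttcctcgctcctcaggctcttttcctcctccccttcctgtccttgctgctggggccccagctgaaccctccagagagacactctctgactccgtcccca
Kcna6, chr6:126740625-126740924, minus strand: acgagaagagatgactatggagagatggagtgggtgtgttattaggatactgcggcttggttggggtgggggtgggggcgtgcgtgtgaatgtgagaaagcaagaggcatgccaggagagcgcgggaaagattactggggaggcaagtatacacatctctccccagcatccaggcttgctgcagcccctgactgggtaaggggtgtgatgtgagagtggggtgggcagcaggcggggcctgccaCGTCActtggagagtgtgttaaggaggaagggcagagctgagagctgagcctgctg
The motifs were CCCNNGGG, the core that EBF factors bind, TGACG, part of the cAMP response element, and GTTGCC, part of the RFX box. Of 32851 promoter windows of this length, 13.7% held the EBF core, 20.8% held TGACG and 12.5% held GTTGCC, and of the 87 windows of 62 Kcn genes 14.9%, 17.2% and 17.2% did. The capitals in the Kcnc4 window are overlapping matches to the EBF core in a run of C and G, and a match to TGACG. Kcna5 had a match to GTTGCC, Kcna6 a match to TGACG on the other strand, and the Kcns3 window shown, that of 1 of its 2 starts, had none of the 3 strings. A match describes the letters in the window and is no evidence of binding.

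Kcnc4 encodes a channel of the Shaw-related group that opens at strong depolarisation and inactivates quickly. Its signals were 4127 in OSNs, against 21.3 in residual epithelium and 617 in brain. It was at least 58.7-fold above residual epithelium in OSNs and 6.69-fold above brain. A second chip A probe set had 1792 in OSNs, against 13.3 in residual epithelium and 243 in brain, with at least 25.5-fold and 7.36-fold higher signals in OSNs. Both put OSNs first, brain next and residual epithelium under the floor.

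Kcna5, a Shaker-related delayed rectifier best known from heart muscle and blood vessels, had signals of 3427 in OSNs, against 500.2 in residual epithelium and 78.8 in brain. That is 6.85-fold above residual epithelium in OSNs and 43.5-fold above brain, where the signal was just above the floor. Only 1 probe set measured it. Kcns3, a subunit that is silent alone and changes the pores it joins, had signals of 3206 in OSNs, against 407 in residual epithelium and 422 in brain at the probe set that represents it. A second probe set had 1823 in OSNs, against 56.7 in residual epithelium and 62.3 in brain, and both of those lower signals were under the floor. The OSN signal was therefore 7.88-fold and at least 22.9-fold higher than the residual one by these probe sets, in the order given, and 7.60-fold and at least 22.9-fold higher than that of brain. At the first probe set residual epithelium and brain were alike, with a log2 ratio of -0.05 between them.

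Kcnq1 forms the slow delayed rectifier of heart muscle and inner ear together with Kcne1. Its signals were 482 in OSNs, against 38 in residual epithelium and 46.9 in brain, so that OSNs were at least 6.86-fold above both others, whose signals lay under the floor. Its usual partner Kcne1 reached the floor only in OSNs on chip B, at 92.3, and was counted nowhere, as were all 5 Kcne genes on the arrays.

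A further set of Kcn genes was lowest in residual epithelium. Of 37 Kcn genes counted in both comparisons, 11 were at least 2-fold lower in residual epithelium than in OSNs and than in brain (29.7%, against 4.49% of all genes). They were the voltage-gated Kcna1, Kcna2, Kcna6, Kcnc4, Kcng1 and Kcnh3, the accessory Kcnab2 and Kcnip4, the calcium-activated Kcnma1 and Kcnn2, and the inward rectifier Kcnj6. With signals at the chip median in all 3 populations required, 4 of 19 remained, Kcna2, Kcnab2, Kcnh3 and Kcnma1 (21.1%, against 3.84% of such genes). Kcna2, an axonal delayed rectifier, had signals of 5837 in OSNs, against 716 in residual epithelium and 4002 in brain. It was 8.15-fold above residual epithelium in OSNs, and its log2 ratio over brain was 0.54. A second chip B probe set gave 2125 in OSNs, against 416 in residual epithelium and 3319.7 in brain. On the other chip a probe set gave 985 in OSNs, against 316 in residual epithelium and 862 in brain, so that OSNs and brain stood above residual epithelium on both chips. The remaining probe set was flat, with 211 in OSNs, against 282 in residual epithelium and 217 in brain.

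Kcna6, also Shaker-related, had 2394 in OSNs, against 21.7 in residual epithelium and 2011 in brain at the probe set that represents it, at least 30.0-fold above residual epithelium in OSNs and within 2-fold of brain. The chip A probe set had 389 in OSNs, against 131 in residual epithelium and 415 in brain, a ratio of 2.97-fold. The other chip B probe set had 297 in OSNs, against 335 in residual epithelium and 559.5 in brain, where the epithelial samples hardly differed. The ratio of Kcna6 within the epithelium thus ran from -0.17 to 4.91 on the log2 scale across its probe sets. Kcna1, which pairs with Kcna2 in myelinated axons, was highest in brain, with 518 in OSNs, against 186 in residual epithelium and 9495 in brain. It was 2.79-fold above residual epithelium in OSNs and 18.3-fold below brain. Another of its probe sets was flat, with 269 in OSNs, against 258 in residual epithelium and 187 in brain. Kcna5, Kcna1 and Kcna6 are consecutive protein-coding genes on chromosome 6 in the RefSeq annotation of GRCm38.p6, and they showed 3 different profiles. Kcna5 was highest in OSNs, Kcna1 in brain, and Kcna6 was within 2-fold between OSNs and brain and lowest in residual epithelium. Kcna2 also has a Kcna neighbour, Kcna3, whose signals were under the chip median everywhere, 74, 82.3 and 138 in OSNs, residual epithelium and brain.

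Kcng1, a silent subunit that joins other voltage-gated pores, had 969 in OSNs, against 191 in residual epithelium and 559 in brain, 5.09-fold above residual epithelium in OSNs. A second Kcng1 probe set was below the floor in all 3 populations. Kcnh3 belongs to the ether-a-go-go family and is known from the forebrain. On chip B its signals were 6311 in OSNs, against 1361 in residual epithelium and 3724 in brain. The chip A probe set had 341 in OSNs, against 141 in residual epithelium and 156 in brain. The ratio of OSNs over residual epithelium was 4.64-fold on chip B and 2.42-fold on chip A. Over brain it was 1.69-fold on chip B and 2.19-fold on chip A. A further chip B probe set, whose _x_at suffix marks probes that can bind other transcripts, gave 4.44-fold and 2.10-fold, and the last was below the floor.

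**Figure D2:**
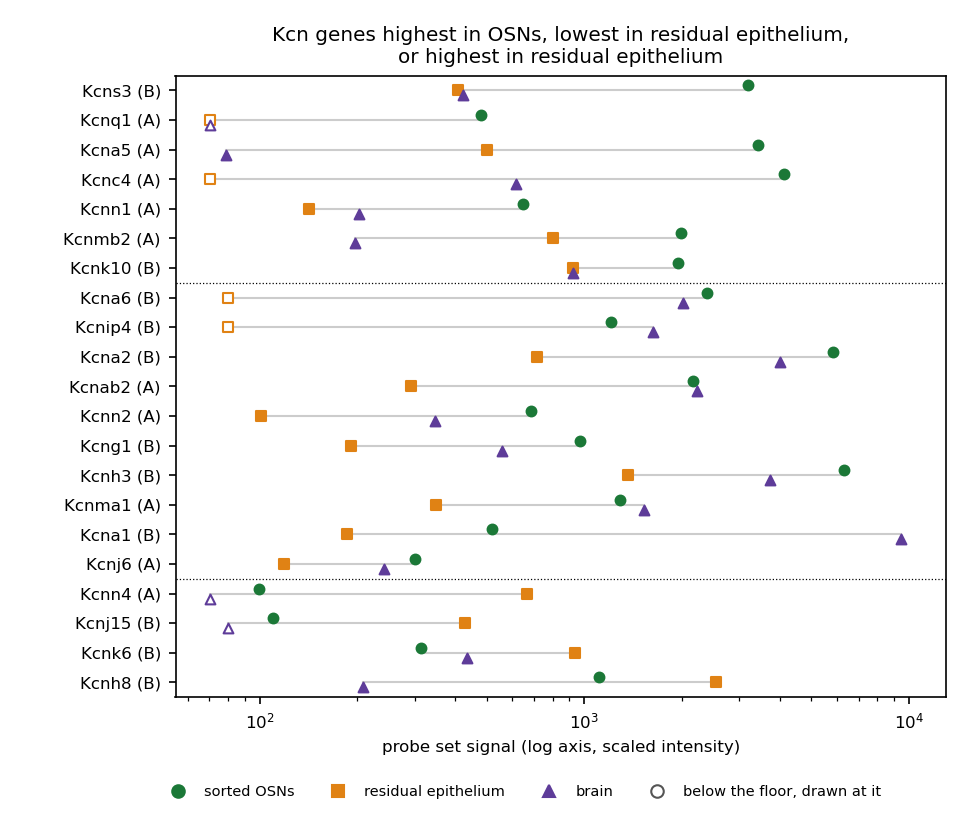
Signals of Kcn genes in sorted OSNs (circles), residual epithelium (squares) and brain (triangles) on a log axis, 1 array each, with the chip in brackets; open symbols lay below the floor and are drawn at it, and symbols are shifted vertically to stay visible. The upper block holds the 7 genes highest in OSNs, the middle block the other genes lowest in residual epithelium, in which OSN and brain signals mostly lie near each other apart from Kcna1 (517.8 and 9495), and the bottom block the 4 genes highest in residual epithelium.

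By their representing probe sets, Kcnq3, Kcnc1, Kcns2 and Kcnh8 were the voltage-gated genes at least 2-fold below residual epithelium in OSNs. Other probe sets of Kcnq3, Kcnc1 and Kcns2 did not share this. Kcnq3, a subunit of the M-current that holds neurons back from repeated firing, had 49.7 in OSNs, against 1462 in residual epithelium and 1861 in brain, at least 18.3-fold below residual epithelium in OSNs and at least 23.3-fold below brain. Its other probe set had 318 in OSNs, against 265 in residual epithelium and 528 in brain, with log2 ratios of 0.26 and -0.73, so the low OSN value rests on 1 probe set. Kcns2, a silent subunit, had 405 in OSNs, against 1389 in residual epithelium and 1798 in brain, 3.43-fold below residual epithelium in OSNs and 4.45-fold below brain. Its chip A probe set, not counted, had 95.6 in OSNs, against 88.9 in residual epithelium and 159 in brain.

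Kcnh8, an ether-a-go-go relative, was present in both epithelial samples. It had 1109 in OSNs, against 2550.1 in residual epithelium and 208 in brain, 2.30-fold below residual epithelium in OSNs and 5.33-fold above brain. Kcnc1, the fast-spiking relative of Kcnc4, had probe sets that went opposite ways within the epithelium. On chip B, 1 of them had 139 in OSNs, against 555 in residual epithelium and 1796 in brain. Another had 390.0 in OSNs, against 134 in residual epithelium and 283 in brain. The chip A probe set had 233 in OSNs, against 131 in residual epithelium and 1336 in brain. Their log2 ratios of OSNs over residual epithelium were -1.99, 1.54 and 0.82, in the order given, and the remaining probe set was under the floor in both. No direction can be given for Kcnc1 within the epithelium. It was below brain in OSNs at 3 of its 4 probe sets, and the other had a log2 ratio of 0.46 there.

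Kcnd1, Kcnd3, Kcng2, Kcng4, Kcnh1 and Kcnh2 were counted and within 2-fold between OSNs and residual epithelium, from -0.99 for Kcnh1 to 0.96 for Kcnh2 in log2 ratio. Kcnd1 was also flat against brain, with 566 in OSNs, against 589.6 in residual epithelium and 542 in brain. Kcnh2, the channel of the cardiac repolarising current, had 439 in OSNs, against 226 in residual epithelium and 617 in brain. Kcng2 had 408 in OSNs, against 268 in residual epithelium and 486 in brain. In these 3 genes all populations reached the chip median. At their representing probe sets, Kcnd3, Kcng4 and Kcnh1 were more than 4-fold higher in brain than in OSNs.

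Of 26 counted voltage-gated pore genes, 12 were at least 2-fold below brain in OSNs (46.2%, against 21.1% of all counted genes). Another 5 were higher (19.2%, against 18.5%) and 9 lay within 2-fold. For 12 of the 26 the filter was met by 1 of the arrays alone, which fixed their side. Of the 14 with both signals at the chip median or above, 2 were higher and 5 were lower, with a median log2 ratio of -0.10. Kcnd2, the A-type channel of dendrites, had 83.9 in OSNs, against 75.4 in residual epithelium and 1759 in brain, 21.0-fold below brain in OSNs, and 2 further probe sets gave at least 6.09-fold and at least 14.7-fold. The chip B probe set was under the floor throughout. Its relative Kcnd3 had 304 in OSNs, against 246 in residual epithelium and 3331 in brain, 11.0-fold lower in OSNs. In neither did the OSN signal stand out from that of residual epithelium.

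Kcnc2, another fast-spiking channel, had 125 in OSNs, against 10.7 in residual epithelium and 2560.3 in brain, 20.4-fold below brain in OSNs. The silent subunits Kcnf1, Kcng4 and Kcnv1 were at least 12.8-fold, 5.23-fold and at least 17.8-fold lower. Kcnf1 had 5.90 in OSNs, against 74.5 in residual epithelium and 1018 in brain. Kcng4 had 305 in OSNs, against 334 in residual epithelium and 1596 in brain. Kcnv1 had 31.1 in OSNs, against 216 in residual epithelium and 1417 in brain. All 3 were more than 4-fold under brain in OSNs. Kcnh1, the founding mammalian ether-a-go-go channel, had 439.5 in OSNs, against 871 in residual epithelium and 2922 in brain, 6.65-fold below brain in OSNs. The chip A probe set of Kcnh1 had 183 in OSNs, against 203 in residual epithelium and 447 in brain, 2.44-fold below brain in OSNs. Kcnq5, which shares the M-current with Kcnq3, had 224 in OSNs, against 164 in residual epithelium and 967 in brain, 4.32-fold below brain. Kcnv2 and Kcnh7 were counted through brain and were within 2-fold of it, at log2 ratios of -0.77 and -0.84.

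Of 7 counted accessory genes of voltage-gated channels, Kcnab2 and Kcnip4 were within 2-fold between OSNs and brain. The other 5 were lower in OSNs, where 21.1% of all counted genes were. Those 5 met the filter through brain alone, which fixed that side. Kcnab2, which binds Kcna channels, had 2156 in OSNs, against 292 in residual epithelium and 2225 in brain, 7.37-fold above residual epithelium in OSNs and equal to brain within the yardstick (log2 ratio of -0.05). Its second probe set had 1183 in OSNs, against 79.3 in residual epithelium and 2067 in brain, with a 14.9-fold difference within the epithelium and a log2 ratio over brain of -0.80. The other members of its family were higher in brain. Kcnab1 had 87.1 in OSNs, against 111 in residual epithelium and 1932 in brain, 22.2-fold below brain in OSNs. Kcnab3 had 137 in OSNs, against 55.6 in residual epithelium and 533 in brain, 3.89-fold below brain.

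Kcnip proteins are calcium sensors that bind Kcnd channels. On chip B Kcnip4 had 1208 in OSNs, against 63 in residual epithelium and 1631 in brain, at least 15.2-fold above residual epithelium in OSNs and within 2-fold of brain. On chip A a probe set had 382 in OSNs, against 81.1 in residual epithelium and 879.7 in brain, 4.71-fold above residual epithelium in OSNs, and another gave 2.97-fold. Kcnip1, Kcnip2 and Kcnip3 were 6.01-fold, at least 39.7-fold and 3.98-fold below brain in OSNs and were not counted within the epithelium. Kcnip1 had 117 in OSNs, against 126 in residual epithelium and 702 in brain. Kcnip3 had 109 in OSNs, against 148 in residual epithelium and 434 in brain. Kcnip2 had 50.3 in OSNs, against 138 in residual epithelium and 3161 in brain. A different Kcnip2 probe set, not counted, had 200.2 in OSNs, against 107 in residual epithelium and 90.1 in brain. All 7 counted accessory genes were lower in residual epithelium than in brain, where 18.9% of all counted genes were. In 6 of the 7 brain alone met the filter, which fixed that side, and in Kcnab2 both signals did.

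Of 5 counted calcium- or sodium-activated pores, 3 were at least 2-fold above residual epithelium in OSNs, against 12.8% of all counted genes. Of these 3, Kcnn1 and Kcnn2 met the filter through OSNs alone, which fixed that side. In Kcnma1 both signals met it. Kcnn1 and Kcnn2 are small-conductance channels that follow a spike with a slow hyperpolarisation. Kcnn1 had 648 in OSNs, against 142 in residual epithelium and 203 in brain, 4.57-fold above residual epithelium in OSNs and 3.20-fold above brain. The second probe set had 398 in OSNs, against 28.4 in residual epithelium and 107 in brain, where OSNs were at least 5.66-fold above residual epithelium and 3.72-fold above brain. Kcnn2 had 687 in OSNs, against 101 in residual epithelium and 347 in brain, 6.80-fold above residual epithelium in OSNs and 1.98-fold above brain, just short of 2-fold. Kcnn3 was under the floor on all arrays.

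Kcnma1 encodes the large-conductance calcium-activated channel. The chip A probe set that represents it had 1292 in OSNs, against 349 in residual epithelium and 1532 in brain, 3.70-fold above residual epithelium in OSNs, and the other chip A probe set gave 2.63-fold in the same direction. On chip B, 1 probe set had a log2 ratio of 0.46, and another went the other way with 107 in OSNs, against 359 in residual epithelium and 314 in brain, 3.36-fold lower in OSNs. The probe sets of Kcnma1 thus reached 2-fold in opposite directions. The remaining probe set was not counted. Of its accessory subunits, Kcnmb2, which makes the channel inactivate, had 1989.7 in OSNs, against 800.3 in residual epithelium and 196 in brain, 2.49-fold above residual epithelium in OSNs and 10.1-fold above brain. The other Kcnmb2 probe set gave 2.75-fold and 6.75-fold. Kcnmb4, the form known from brain neurons, had 701 in OSNs, against 432 in residual epithelium and 1227 in brain. It was within 2-fold in both OSN comparisons, at log2 ratios of 0.70 and -0.81.

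Kcnn4, the intermediate-conductance channel of red cells and lymphocytes, was the calcium-activated gene highest in residual epithelium. It had 99.6 in OSNs, against 666 in residual epithelium and 26.7 in brain. A second probe set had 4.90 in OSNs, against 244 in residual epithelium and 12.8 in brain. That is 6.68-fold below residual epithelium in OSNs by the first and at least 3.47-fold lower by the second. The sodium-activated Kcnt1 had 475 in OSNs, against 279 in residual epithelium and 2051 in brain, 4.31-fold below brain in OSNs and with a log2 ratio of 0.77 over residual epithelium. Kcnt2 had 55.7 in OSNs, against 3.10 in residual epithelium and 424 in brain, with both epithelial samples under the floor.

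Of 9 inward rectifiers counted against brain, 7 were lower in OSNs, 1 was higher and 1 was within 2-fold, where 21.1% of all genes were lower and 18.5% higher. Both signals reached the chip median in 3 of the 9, of which 2 were lower. Kcnj10, the main glial member, had 69.5 in OSNs, against 119 in residual epithelium and 715 in brain, at least 10.2-fold below brain in OSNs. Kcnj16, which joins it in a shared channel, had 53 in OSNs, against 316 in residual epithelium and 774 in brain, at least 9.71-fold below brain and at least 3.97-fold below residual epithelium. In brain they stood beside glia markers whose summed signals were 5620 (OSNs), 2100 (residual epithelium) and 41925 (brain), and their part in these values was not tested. Slc1a2 alone made up 4519 of the OSN sum, while Mbp had 168 in OSNs, against 198 in residual epithelium and 11202 in brain. Markers of ensheathing glia had sums of 729.9, 5439 and 15643 in the same order, and Apoe alone made up 4974 of the residual sum. The other markers hardly differed between the epithelial samples. Sox10 had 288 in OSNs and 327 in residual epithelium, and Fabp7 had 69.5, under the floor, and 89.6. S100b was under the floor in both. Kcnj10 and Kcnj9 are neighbours in the annotation. Kcnj9, a G protein-gated subunit, had 23 in OSNs, against 27.6 in residual epithelium and 1098 in brain, at least 13.8-fold below brain in OSNs.

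Among the other G protein-gated subunits, Kcnj3 was 2.94-fold below brain in OSNs at the chip A probe set and at least 14.1-fold lower at the best chip B probe set. Between residual epithelium and brain its probe sets reached 2-fold in opposite directions, with 225 in residual epithelium and 1120.0 in brain at that chip B probe set and 471 in residual epithelium and 132 in brain at another. Kcnj6 had 302 in OSNs, against 119 in residual epithelium and 241 in brain, 2.54-fold above residual epithelium in OSNs, at the only counted probe set of 5. Kcnj5 was the inward rectifier at least 2-fold above brain in OSNs, with 298 in OSNs, against 277 in residual epithelium and 34.7 in brain, at least 3.74-fold against brain and alike in both epithelial samples. Its chip A probe set was under the floor throughout.

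Kcnj11, the pore of the ATP-sensitive channel, had 1050.1 in OSNs, against 2289.8 in residual epithelium and 2415 in brain at its chip B probe set, 2.18-fold below residual epithelium in OSNs and 2.30-fold below brain. The chip A probe set of Kcnj11 had 63.3 in OSNs, against 10.2 in residual epithelium and 239.5 in brain, with both epithelial signals under the floor. The regulatory partners of Kcnj11 were under the floor in OSNs, and Abcc8 had 44.9 in residual epithelium and 785 in brain. Abcc9 had 364 in residual epithelium and 561 in brain, at least 4.57-fold and at least 7.04-fold above OSNs. Kcnj4, a strong rectifier of forebrain neurons, had 109 in OSNs, against 12.3 in residual epithelium and 318 in brain. Kcnj13, an epithelial channel known from choroid plexus, had 388 in OSNs, against 549 in residual epithelium and 1048 in brain, 2.70-fold below brain in OSNs and at -0.50 over residual epithelium. Kcnj15 was highest in residual epithelium at its only counted probe set, with 109.5 in OSNs, against 428 in residual epithelium and 15.2 in brain, 3.91-fold lower in OSNs. Another Kcnj15 probe set, not counted, had 73.4 in OSNs, against 201 in residual epithelium and 149 in brain. The chip A probe set of Kcnj15 was under the floor throughout. Its neighbour Kcnj6 had its highest signal in OSNs.

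Tandem-pore leak channels differed by member. Kcnk10, a stretch- and lipid-gated channel, had 1949 in OSNs, against 925 in residual epithelium and 921 in brain at its chip B probe set, with OSNs 2.11-fold above residual epithelium and 2.12-fold above brain. At its chip A probe set it had 663 in OSNs, against 144 in residual epithelium and 68.3 in brain, with OSNs 4.60-fold and at least 9.43-fold above. Both probe sets had OSNs highest. Its relatives Kcnk2 and Kcnk4 were 7.39-fold and 4.68-fold below brain in OSNs and were not counted within the epithelium. Kcnk2 had 121 in OSNs, against 94.5 in residual epithelium and 896 in brain. Kcnk4 had 110.4 in OSNs, against 112 in residual epithelium and 516 in brain.

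Kcnk1, a weakly inward-rectifying leak channel, had 101 in OSNs, against 582 in residual epithelium and 2674 in brain, 5.77-fold below residual epithelium in OSNs and 26.5-fold below brain. Kcnk6 was highest in residual epithelium, with 313 in OSNs, against 939 in residual epithelium and 435 in brain, a log2 ratio of -1.58 for OSNs over residual epithelium. Kcnk12 had 163 in OSNs, against 272 in residual epithelium and 1201 in brain, 7.37-fold below brain in OSNs. Kcnk16, known from the pancreas, was flat, with 449.9 in OSNs, against 526 in residual epithelium and 486 in brain.

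**Figure D3:**
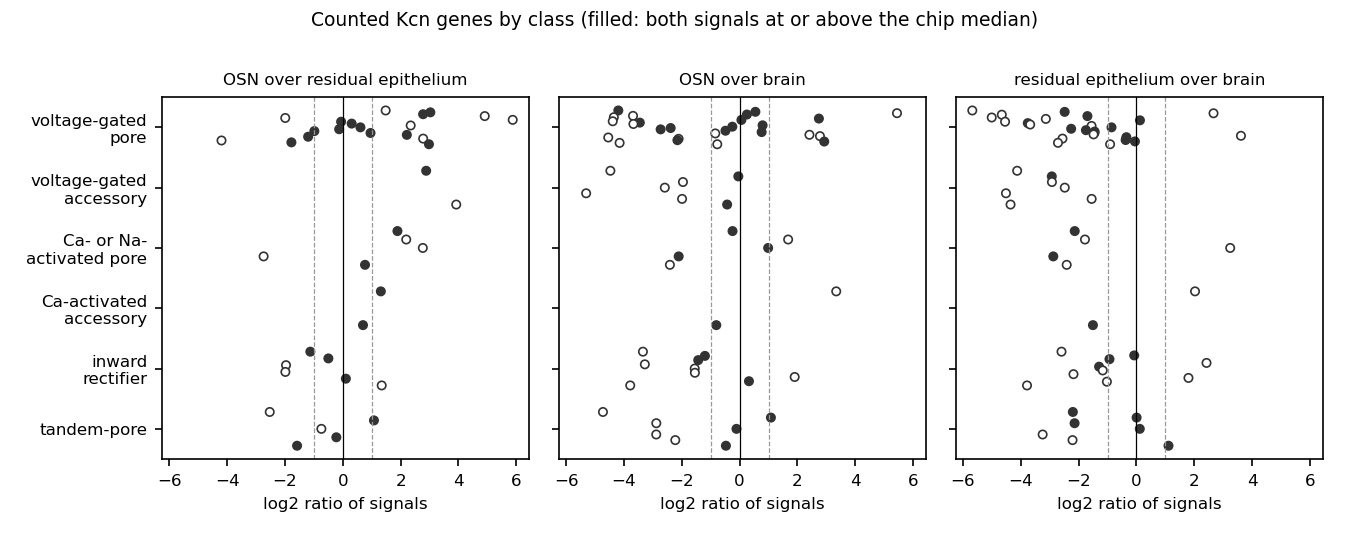
Log2 ratio of signals of each counted Kcn gene, by class and comparison, 1 array per population and chip; filled points had both signals at the chip median or above, open points passed the filter through the higher array only, and dashed lines mark 2-fold. Voltage-gated accessory genes lie above 0 for OSNs over residual epithelium (2 counted) and below -1 for residual epithelium over brain (all 7), and voltage-gated pores span from -4.20 to 5.88 for OSNs over residual epithelium.

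The genes highest in residual epithelium stood beside markers of other cells there. At least 2-fold above both other populations were 4 of 37 counted in both comparisons (10.8%, against 11.3% of all genes). By their representing probe sets these were Kcnh8, Kcnj15, Kcnk6 and Kcnn4. With all 3 signals at the chip median 1 of 19 remained, Kcnk6 (5.26%, against 4.73% of such genes). In OSNs, residual epithelium and brain, the summed signals were 1206, 53334 and 717.1 for the 6 neutrophil and marrow markers, 1065, 18410 and 3655 for the 5 myeloid markers, and 511.8, 9010 and 566.5 for the 6 lymphocyte markers. They were 248.8, 1799 and 90.1 for the 4 basal cell markers, and 69.1, 7657 and 74.9 for the 2 measured erythroid markers. Camp, Elane, Itgam, Cd79b, Cd3g, Ikzf1, Slc4a1, Alas2, Krt14, Krt15 and Trp63 were under the floor in OSNs. Of the 4 sustentacular markers, Cyp2g1, Cyp1a2 and Ermn were within 2-fold between OSNs and residual epithelium and Notch2 was 7.60-fold lower in OSNs. Their summed signals were 4917, 4674 and 3655, and Ermn made up 3246 of the brain sum. The 7 stromal and vascular markers had sums of 1319, 3659 and 1956. The part of these cells in the channel values was not tested.

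The comparison of residual epithelium with brain sets the epithelium left after removal of the GFP-positive cells against neural tissue. Of the 6 mature OSN markers, 3 were at least 2-fold above brain in residual epithelium, 1 was lower and 2 were within 2-fold. In residual epithelium and brain, Cnga2 had 588 and 64, Stoml3 1329 and 194, and Cnga4 270 and 8.8. Gnal was lower, with 1187 and 2779. The part of remaining OSNs in the residual values was not tested. Of 56 counted Kcn genes, 7 were at least 2-fold higher in residual epithelium (12.5%), against 22.5% of all counted genes, and 39 were lower (69.6%), against 18.9%. The median log2 ratio was -1.76, and 0.12 over all counted genes. For 32 of the 56 the filter was met by 1 of the arrays alone, which fixed the side of the ratio. The same held for 3237 of the 12916 genes counted at large. Of the 24 Kcn genes with both signals at the chip median or above, 1 was higher and 14 were lower, against 16.3% and 13.6%. Their median log2 ratio was -1.45, and 0.11 over all such genes. On chip A, 5 of 41 counted probe sets were higher and the other 36 were lower, with none within 2-fold, against 21.2% and 20.7%. Of these 41, 34 met the filter through 1 array alone, which fixed their side. Of the 7 with both signals at the chip median or above, 1 was higher and 6 were lower. On chip B 5 of 57 were higher and 36 were lower, against 20.1% and 20%, and 32 of the 57 met the filter through 1 array alone. After the same scaling, 5 genes were higher and 42 lower, and the shares of all genes became 17.8% and 23.8%.

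The 7 genes above brain were Kcna5, Kcnh8, Kcnj5, Kcnj15, Kcnk6, Kcnmb2 and Kcnn4. Kcnh8 was 12.3-fold and Kcna5 6.35-fold higher, and Kcnn4 at least 9.47-fold. Kcna5, Kcnmb2 and Kcnj5 are thus found in both epithelial samples above brain. Among those far below brain in residual epithelium were Kcna1 (51.2-fold), Kcnd2 (23.3-fold) and Kcnip2 (22.8-fold), and Kcnc2 (at least 32.1-fold) and Kcna6 (at least 25.2-fold), whose bounds depend on the floor, so no order is given. Brain exceeded both epithelial samples at least 2-fold for 26 of 54 Kcn genes counted in both comparisons (48.1%, against 14.3% of all genes). Most of them met the filter through brain alone. With all 3 signals at the chip median, 4 of 19 remained, Kcnd3, Kcng4, Kcnh1 and Kcnt1 (21.1%, against 6.9% of such genes). Brain neuron markers, summed over 5 genes, had signals of 2014 (OSNs), 1558 (residual epithelium) and 23679 (brain), and their part in these values was not tested.

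**Figure D4:**
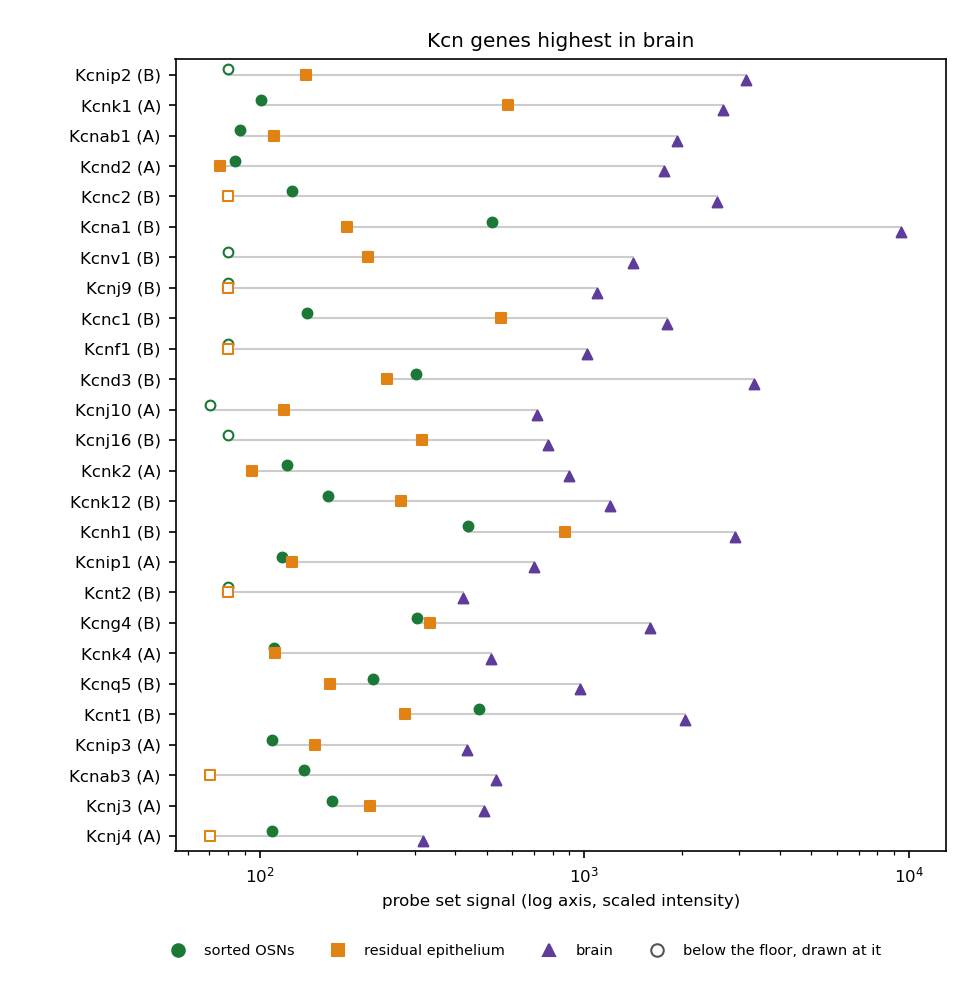
Signals of the 26 Kcn genes at least 2-fold higher in brain than in both epithelial populations, on a log axis, 1 array each, in order of their ratio of OSNs over brain; open symbols lay below the floor and are drawn at it, and symbols are shifted vertically to stay visible. Brain (triangles) is the rightmost symbol in every row, with Kcnk1 (100.9 and 582.2) and Kcnj16 (53.0 and 316.1) among those where residual epithelium is higher.

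At least 2-fold below both other populations in OSNs were 6 of 37 Kcn genes counted in both comparisons (16.2%, against 6.82% of all genes). They were Kcnc1, Kcnj11, Kcnj16, Kcnk1, Kcnq3 and Kcns2 by their representing probe sets. For Kcnc1 no direction within the epithelium can be given, and the other Kcnq3 probe set had a log2 ratio of 0.26 there. With all 3 signals at the chip median, 2 of 19 remained, Kcnj11 and Kcns2 (10.5%, against 3.22% of such genes). Both rest on chip B. The chip A probe set of Kcns2 had a log2 ratio of 0.10 for OSNs over residual epithelium, and that of Kcnj11 was under the floor in both.

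Genes that work with these channels but carry other names were set beside them. Of 18 measured channel partners, such as clustering and anchoring proteins, 11 were counted in OSNs over residual epithelium, and 6 of those were at least 2-fold higher while 1 was lower, against 12.8% and 18.7% of all genes. Their median log2 ratio was 1.03. For 3 of the 11 the filter was met by 1 of the arrays alone, which fixed their side. Of the 8 with both signals at the chip median or above, 5 were higher and 0 lower, against 11.6% and 9.97% of such genes. Adam23 and Adam22, receptors of the Lgi proteins that act on Kcna channels, were 8.50-fold and 3.86-fold above residual epithelium in OSNs, and Adam23 had 2564 in OSNs, against 302 in residual epithelium and 3026 in brain. Dlg2, a scaffold that clusters Kcna channels, had 1508 in OSNs, against 219 in residual epithelium and 3504 in brain, 6.88-fold above residual epithelium. Both were also high in brain. Against brain 0 of 15 were higher and 8 were lower (median of -1.22), against 18.5% and 21.1% of all genes. For 6 of the 15, namely Dpp6, Dpp10, Cntnap2, Lgi1, Abcc8 and Abcc9, brain alone met the filter, which fixed their side. Of the 9 with both signals at the chip median or above, 0 were higher and 2 lower, against 16.4% and 11.9% of such genes. Their median log2 ratio was -0.24. Dpp6 and Dpp10, the membrane partners of Kcnd channels, were 6.92-fold and 8.46-fold below brain in OSNs, and Dpp10 had 176 in OSNs, against 171 in residual epithelium and 1490.0 in brain. For Dpp6 the signals were 189.6 in OSNs, against 191 in residual epithelium and 1312 in brain. Lgi1, a secreted ligand of Adam22 and Adam23, had 241 in OSNs, against 343 in residual epithelium and 4479.8 in brain, 18.6-fold lower. Cntnap2 and Cntn2, which cluster Kcna channels beside the nodes of axons, were 8.42-fold and 4.09-fold below brain, with OSN signals of 70.6 and 373.

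The sodium pump builds the gradient that these channels use. Of 10 measured pump genes, 7 entered the comparison of OSNs with residual epithelium, with 2 higher and 4 lower (median of -1.26). Over brain 8 did, with 1 higher and 6 lower (median of -2.58). The shares of all counted genes were 12.8% and 18.7%, then 18.5% and 21.1%. For 4 of the 7 and 5 of the 8 the filter was met by 1 of the arrays alone, which fixed their side. Of the 3 left in each comparison, 1 was higher and 1 lower over residual epithelium, and 0 higher and 2 lower over brain. The beta subunit Atp1b1 had 12040.2 in OSNs, against 3706 in residual epithelium and 11447 in brain, 3.25-fold above residual epithelium in OSNs and equal to brain within the yardstick. The glial form Atp1b2 had 233 in OSNs, against 308 in residual epithelium and 4694 in brain, 20.2-fold below brain in OSNs. Among the small Fxyd regulators, Fxyd2 was higher in OSNs, with 489 in OSNs, against 83.8 in residual epithelium and 17.1 in brain. Fxyd3 was highest in residual epithelium, with 145 in OSNs, against 1230.0 in residual epithelium and 98.2 in brain. So was Fxyd5, with 210.3 in OSNs, against 1778 in residual epithelium and 430.4 in brain. Fxyd1, Fxyd6 and Fxyd7 were under the floor in OSNs and had 1229, 673 and 685 in brain.

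Where a gene had several probe sets, these were further apart for Kcn genes than for genes at large. For OSNs over residual epithelium, 17 Kcn genes had several counted probe sets, 11 of them all of the same sign, and their ratios differed within a gene with an SD of 1.45 log2 units, against 0.62 over all such genes. Over brain the SD was 1.26, against 0.79, with 23 of 29 genes of the same sign. For residual epithelium over brain it was 1.43, against 0.78, with 22 of 27. Only Kcnc1 and Kcnma1 reached 2-fold in opposite directions for OSNs over residual epithelium, none did over brain, and Kcnj3 did between residual epithelium and brain. For the 23 genes on both chips, the best probe set of each chip gave the same sign for 6 of 7 genes counted on both in OSNs over residual epithelium (Kcnc1 was the exception), for 11 of 12 over brain (Kcna6 was the exception) and for 10 of 10 between residual epithelium and brain.

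**Figure D5:**
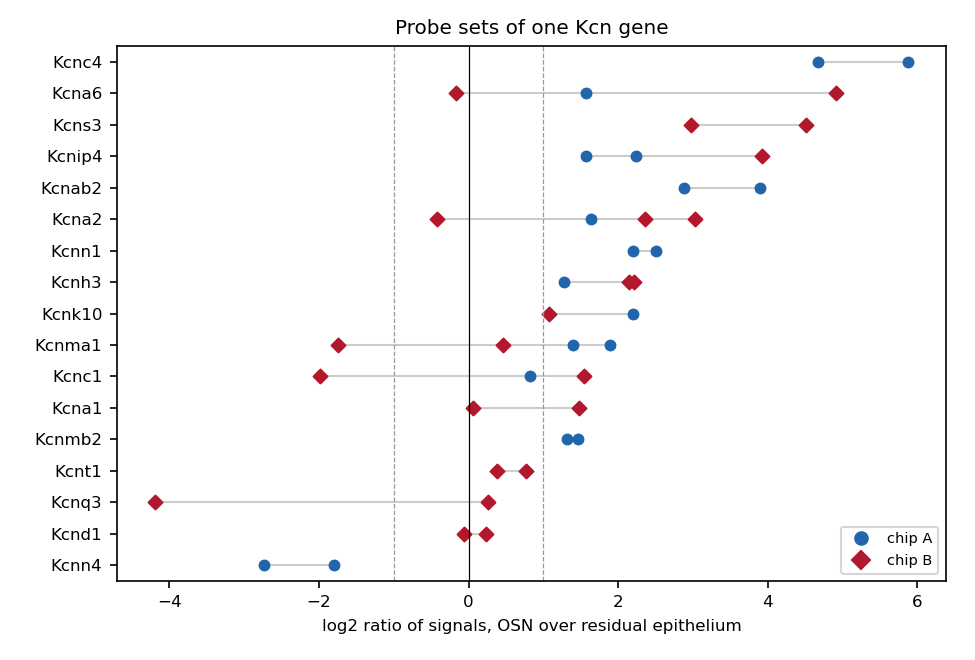
Log2 ratio of OSNs over residual epithelium for each counted probe set of the 17 Kcn genes with several, chip A as circles and chip B as diamonds, 1 array per population and chip, with dashed lines at 2-fold. Kcnc4, Kcns3, Kcnip4, Kcnab2, Kcnn1, Kcnh3, Kcnk10 and Kcnmb2 have every point above 2-fold and Kcnn4 every point below it on the other side, while Kcnma1 and Kcnc1 have points past both lines.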

How the data were processed

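RNA from sorted OSNs, residual epithelium and brain was hybridised to Affymetrix chips A and B, 1 array for each population and chip, 6 arrays in all. The deposited intensity values are probe set signals on a linear scale. MAS5 is the tool named for 5 of the 6 arrays, per the submitters' processing notes, and its version and settings are not stated in those notes. The mean of each array between its percentiles 2 and 98 was close to 500, and the number of arrays limits the precision.

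Gene symbols came from GEO's platform annotation, updated through RefSeq, which changed 0 symbols. Only the 35041 probe sets with a single symbol entered gene counts, and 64 control probe sets per array were left out of genes. Signals were floored at percentile 25 of the chip and filtered at percentile 50, and 2-fold counted as different. Signals in all 3 populations are given for counted genes of at least 4-fold, for genes whose probe sets disagree by 2-fold, and for further members described with their class. The scripts were tested on simulated data. Members, lists and thresholds were chosen with earlier results of these data known. Python 3.11.15 with numpy 2.4.6, pandas 2.3.3 and matplotlib 3.10.9 was used. Alternatives changed the floor, the filter, the scaling, the choice of probe set, the fold and the chip.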

Additional observations from a re-analysis of the deposited data

Results flagged for a closer look

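The antisense transcript Kcnq1ot1, which overlaps Kcnq1 and was left out of the gene list, was flagged because data outside the comparisons held a signal above the other populations. In OSNs 1 of its probe sets on chip B had a signal of 742.5, against 184.8 in residual epithelium and 80.3 in brain. The other Kcnq1ot1 probe sets did not share this profile. Another of them had 817.7 in OSNs, against 1164 in residual epithelium and 2267 in brain, and a further one had 389.1 in OSNs, against 605.7 in residual epithelium and 913.8 in brain. The coding gene Kcnq1 was also highest in OSNs, at 482.2, against 38 in residual epithelium and 46.9 in brain. Whether the probe sets of this locus measure the same transcript was not tested.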

How the results depend on the processing

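No count reversed, and counts stayed within 1.5 times their reported value except the following. With the higher signal at or above percentile 75 of the chip, 6 Kcn genes were lower in OSNs against residual epithelium, and 4 were higher in residual epithelium against brain. With both signals at or above the chip median, 8 were higher and 4 lower in OSNs than in residual epithelium, 3 higher and 8 lower in OSNs than in brain, and 1 higher and 14 lower in residual epithelium than in brain. Both settings leave fewer genes to count. On chip A alone, 2 were lower in OSNs than in residual epithelium, 17 were lower in OSNs than in brain, and 3 were higher in residual epithelium than in brain, again with fewer genes. Scaling on the 100 shared probe sets moved the median log2 ratio of all genes by -0.28 for OSNs over brain, by -0.26 for residual epithelium over brain and by -0.01 for OSNs over residual epithelium. Of the values of named genes under the alternatives, 125 moved by less than 1 SD of the shared probe sets and 40 by more for OSNs over residual epithelium, 235 and 85 for OSNs over brain, and 262 and 78 for residual epithelium over brain, and 0 changed direction. Counts of genes highest or lowest in a population, restricted after seeing the data to the 19 Kcn genes at the chip median in all 3 populations, are given beside those results. No paired analysis was possible because each population has 1 array per chip. Without replicates the spread between animals is unknown, and low signals set only bounds.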
